A study of Sus scrofa with 16 samples.

Results

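The acute phase response was followed in pig liver through 10 genes. Those listed as positive were the 7 genes ITIH4, HP, SAA2, LBP, CRP, ORM1 and HPX, and those listed as negative the 3 genes ALB, TF and AHSG. They are those of 25880 genes counted in each pig whose symbol is on a list of acute phase proteins. Both classes are taken from that list and were not tested here. The reference table of symbols names 7 of the 10 genes. HP, SAA2 and ORM1 have no symbol there and were named from a table of the genes that the study called different between diets. These 3 genes could thus be found only because they differed in these same pigs, so their differences are a description and no independent evidence, and counts are also given for the 7 genes named by the reference table. The liver RNA came from 16 crossbred fatteners, of Duroc x Pietrain boars and Polish Landrace x Polish Large White sows, fed from 60 to 118 kg of body weight on diets that differed in the added fat. Group R received rapeseed oil (5 pigs, 3 gilts and 2 barrows), group B beef tallow (5 pigs, 2 gilts and 3 barrows) and group C coconut oil (6 pigs, 3 gilts and 3 barrows). The question of the design is how the source of fat alters liver expression. By label the groups differ in the added fat, with the sexes unevenly spread, no inflammatory challenge and no group without added fat, so every level stands against another fat, at 1 time point, and in mRNA, since plasma proteins were not analysed here.

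Acute phase proteins are plasma proteins, most of them made by hepatocytes, whose output changes during infection, injury and inflammation. Interleukin 6, acting through its receptor, JAK kinases and STAT3, and interleukin 1, acting through NF-κB and C/EBP factors, raise the positive proteins, while the negative proteins decline as the liver turns to other products. Macrophages of the liver are a source of these cytokines, and in the pig haptoglobin, C-reactive protein, serum amyloid A and the ITIH4 product, called pig-MAP, are measured as signs of inflammation.

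Sequencing covered the 3′ ends of mRNA, which gives about 1 tag per transcript, so levels are given as CPM, counts scaled to the same total of reads on genes in each pig, with TMM library sizes, and are not divided by gene length. The files hold 705669 to 1767671 reads on genes for a pig (median 1018321.5). The 10 genes together took 13.02% to 20.6% of these reads (median 16.1%). All 10 were counted in every pig and passed the filter on low counts in each comparison. By median reads ALB was the most abundant, with 41688 to 168248 reads per pig, and SAA2 the least, with 5 to 110 reads. In beef tallow pig 3, however, HP had more reads than ALB, 87385 against 41688. In beef tallow pig 4 ORM1 had fewer than SAA2, 58 against 87. Of the cell type markers, the genes named here and below were chosen after their values were seen. All 10 hepatocyte markers examined were detected, with APOB, the protein of very low density lipoproteins, in first place. Their summed level was 15114 ± 1014, 15670 ± 3502 and 16083 ± 1546 CPM in groups R, B and C (SD, n = 5, 5 and 6). By edgeR 0 of the 10 markers passed an adjusted p of 0.05 in any pair of diets, with 2, 2 and 2 at an unadjusted p under 0.05 in R against B, R against C and B against C, and DESeq2 called CPS1, for a urea cycle enzyme named after its values were seen, in R against B (0.82, DESeq2 adjusted p = 0.0111). Beef tallow pig 3 stood apart, at 59.1 on the first principal component of all genes kept, against 17.4 for coconut oil pig 1, the next highest. That pig also had the lowest summed level of hepatocyte markers, 10476 CPM. Without it the mean of group B was 16968 CPM, above those of groups R and C. Some results for group B are given below with and without it.

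Of the 10 genes, SAA2 had the one call between groups R and B, ITIH4 and LBP were lower with coconut oil than with beef tallow, and none passed the test between groups R and C. Each pair of diets was fitted on its own pigs with edgeR's quasi-likelihood test, with Benjamini-Hochberg adjustment over all genes tested, and the first diet named is the reference. Between groups R and B, 1 of the 10 genes passed an adjusted p of 0.05, where 1.11% of the 6318 genes tested passed (70 genes). At an unadjusted p under 0.05 there were 6 of the 10, against 15% of all genes tested, and 2 had no overlap between the pigs of both diets, against 4.59%. Of the 7 genes named by the reference table, 0 passed by edgeR, 3 had an unadjusted p under 0.05 and 1 had no overlap. DESeq2 called 3 of the 10, ITIH4, LBP and SAA2, where it called 3.40% of the 5583 genes to which it gave an adjusted p (190 genes). Between groups R and C, 0 of the 10 passed, where 0.138% of 6528 genes did (9 genes). With DESeq2 the count was also 0 of the 10, where 1.55% of 6018 genes were called (93 genes). An edgeR unadjusted p under 0.05 was found for 2 of the 10, ITIH4 and TF, both named by the reference table, against 13% of all genes, and 0 were without overlap, against 1.5%. Between groups B and C, 2 of the 10 passed, where 0.0587% of 6812 genes did (4 genes). Here 6 of the 10 had an unadjusted p under 0.05, against 11.5%, and 3 were without overlap, against 1.37%. Of the 7 genes named by the reference table, 2 passed, 3 had an unadjusted p under 0.05 and 2 were without overlap. DESeq2 called 4 of the 10, ITIH4, LBP, HP and ORM1, where it called 1.69% of 2716 genes (46 genes). The comparisons share pigs, so their values are set side by side and are not independent.

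The median log2 fold change of the 7 positive genes was 0.83 for group B over group R, with 5 up and 2 down, beside a median of 0.0112 over all genes tested. For group C over group R it was -0.09, with 3 up and 4 down, beside -0.00111 over all genes. For group C over group B it was -0.66, with 2 up and 5 down, beside -0.00451 over all genes. ORM1 and HPX were the 2 down in the first comparison and the 2 up in the last. Over the 4 positive genes named by the reference table the medians were 0.83, -0.27 and -0.97. The 3 negative genes had medians of -0.29, 0.06 and 0.35 in the same comparisons, and without beef tallow pig 3 the first was -0.15 and the last 0.15. All 3 lay below 0 for group B over group R, and none of these differences passed the test.

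**Figure D1:**
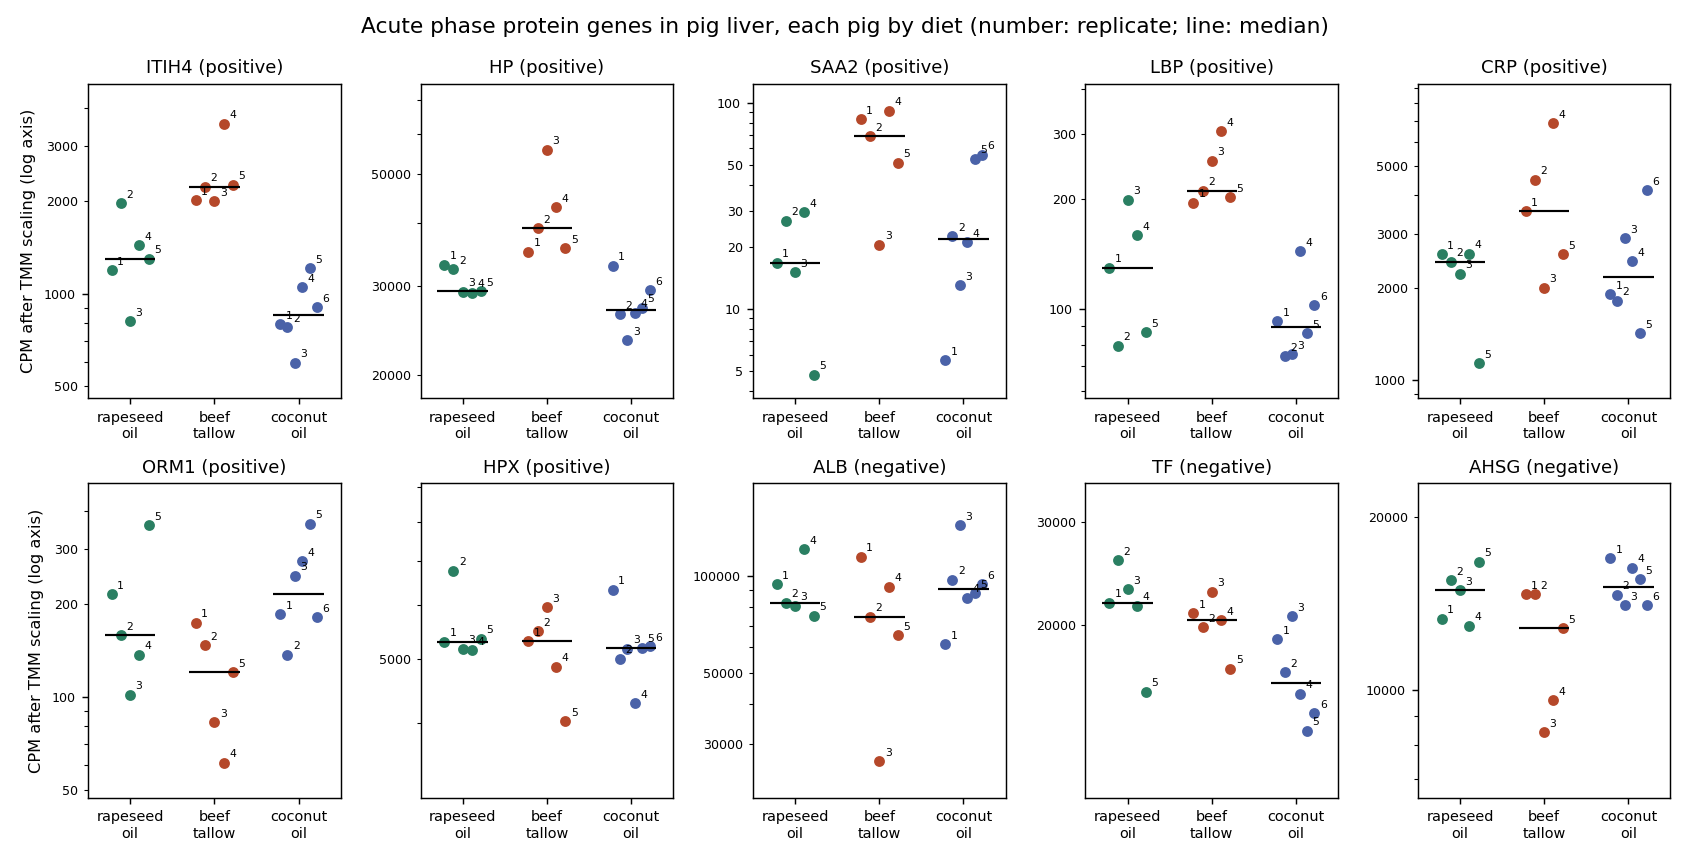
Level of each gene in each pig, as CPM after TMM scaling on a log axis, by diet, with the replicate number beside each point and a line at the median of the diet. The beef tallow pigs lie above every coconut oil pig for ITIH4, HP and LBP, while ORM1 is lower in most beef tallow pigs and HPX spans 4028 to 6761 CPM over all diets.

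ITIH4 (ENSSSCG00000011453, chromosome 13 from 34928455 to 34948250) encodes the pig major acute phase protein, a plasma protein of the inter-alpha-trypsin inhibitor heavy chain family. Its levels were 1189, 1962, 814, 1432 and 1298 CPM in rapeseed oil pigs 1 to 5. In beef tallow pigs 1 to 5 they were 2010.0, 2217, 1994, 3551 and 2257 CPM. The coconut oil pigs ranged from 596 to 1210.5 CPM with a median of 849 CPM. Every beef tallow pig thus lay above every pig of the other 2 diets, though rapeseed oil pig 2 came close to the lowest of them. Group C over group B gave a log2 fold change of -1.43 (SE 0.20, edgeR adjusted p = 0.00538), the second smallest p of 6812 genes. It passed with each pig left out in turn, with values from -1.53 to -1.25, and was -1.49 (edgeR adjusted p = 0.00328) without beef tallow pig 3. For group B over group R the log2 fold change was 0.85 (SE 0.23, edgeR adjusted p = 0.0837), which did not pass with all pigs but did without beef tallow pig 3 (0.90, edgeR adjusted p = 0.0427). DESeq2 gave this difference an adjusted p of 0.0211, within a range of 0.0211 to 0.106 over the alternatives. It was -0.59 for group C over group R (SE 0.20, edgeR adjusted p = 0.229). The order of mean levels was B, R and C, at 2406 ± 651, 1339 ± 417 and 889 ± 217 CPM (SD, n = 5, 5 and 6), and neither neighbouring step passed. In these pieces of whole liver, fewer cells of a type and less RNA per cell cannot be told apart.

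LBP (ENSSSCG00000028758, chromosome 17 from 41398935 to 41429467) encodes the protein that binds bacterial lipopolysaccharide and passes it to CD14. Rapeseed oil pigs 1 to 5 had 129.8, 79.5, 199, 159 and 86.4 CPM. Beef tallow pigs 1 to 5 had 195, 210.3, 254, 306 and 202 CPM. Coconut oil pigs had 74.4 to 144 CPM, with a median of 89.4 CPM. Groups B and C did not overlap, while rapeseed oil pig 3 lay inside the range of group B and pigs 1, 2 and 5 inside that of group C. The log2 fold change of group C over group B was -1.28 (SE 0.19, edgeR adjusted p = 0.00887), and it passed with each pig left out in turn, from -1.43 to -1.17, with -1.24 (edgeR adjusted p = 0.0152) without beef tallow pig 3. For group B over group R it was 0.83 (SE 0.24, edgeR adjusted p = 0.115; with DESeq2 0.0493, in a range of 0.0287 to 0.147 over the alternatives). It was -0.45 for group C over group R (SE 0.23, edgeR adjusted p = 0.433), and -0.24 without rapeseed oil pig 3. Mean levels were again ordered B, R and C, at 234 ± 46.4, 131 ± 50.1 and 95.8 ± 25.8 CPM (SD, n = 5, 5 and 6), with neither neighbouring step past the threshold.

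SAA2 (ENSSSCG00000013369, chromosome 2 from 40972797 to 40976222) encodes a serum amyloid A, an apolipoprotein carried on high density lipoproteins. Its levels in rapeseed oil pigs 1 to 5 were 16.8, 26.8, 15.01, 29.4 and 4.802 CPM. In beef tallow pigs 1 to 5 they were 82.9, 68.7, 20.4, 91.7 and 51.2 CPM. Coconut oil pigs spanned 5.64 to 55.99 CPM, with a median of 21.8 CPM. Of the 5 beef tallow pigs, 4 lay above all rapeseed oil pigs, and beef tallow pig 3 lay inside their range. For group B over group R the log2 fold change was 1.75 (SE 0.41, edgeR adjusted p = 0.0495), on 5 to 29 reads per pig in group R and 32 to 110 in group B. This value sits at the threshold, for a gene whose symbol came from the table of genes called different. With 1 pig left out it passed in 2 of 10 fits, without rapeseed oil pig 4 (1.98, edgeR adjusted p = 0.0482) and without beef tallow pig 3 (1.99, edgeR adjusted p = 0.00696). Without rapeseed oil pig 1, 2, 3 or 5 the edgeR adjusted p was 0.1196, 0.0714, 0.141 and 0.0994, and without beef tallow pig 1, 2, 4 or 5 it was 0.0963, 0.0961, 0.1199 and 0.0867. For group C over group B the log2 fold change was -1.05 (SE 0.44, edgeR adjusted p = 0.393) and for group C over group R 0.70 (SE 0.47, edgeR adjusted p = 0.559). The last was 0.45, 0.44 and 0.39 without rapeseed oil pig 5, coconut oil pig 5 and coconut oil pig 6, and 0.19 with the replicate block. Means of 63.0 ± 28.3, 28.6 ± 21.1 and 18.6 ± 9.88 CPM put the diets in the order B, C and R (SD, n = 5, 6 and 5), and of the neighbours neither B and C nor C and R passed the test.

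CRP (ENSSSCG00000006403) encodes C-reactive protein, a pentraxin that binds phosphocholine on microbes and damaged cells. Rapeseed oil pigs 1 to 5 had 2576, 2427, 2222, 2583 and 1131 CPM. Beef tallow pigs 1 to 5 had 3555, 4498, 1994, 6877 and 2568 CPM, and coconut oil pigs 1418 to 4160.3 CPM with a median of 2170.4 CPM. All 3 diets overlapped, with beef tallow pig 4 the highest and rapeseed oil pig 5 the lowest of the 16. Log2 fold changes were 0.83 for group B over group R (SE 0.30, edgeR adjusted p = 0.186) and -0.66 for group C over group B (SE 0.31, edgeR adjusted p = 0.425). Without beef tallow pig 4 these were 0.53 and -0.36. It was 0.16 for group C over group R (SE 0.26, edgeR adjusted p = 0.846), and -0.00310 and -0.0484 without rapeseed oil pig 5 and coconut oil pig 6, 0.0966 and 0.28 without coconut oil pigs 3 and 5, and -0.0400 with the replicate block. The reference annotation has 2 loci of this name on chromosome 4, from 90782741 to 90785051 and from 90793361 to 90801020, and a read with more than 1 alignment adds to no gene's count, so the level of CRP is uncertain.

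HP and HPX encode scavengers of blood pigments released by broken red cells, haptoglobin binding free haemoglobin and hemopexin free heme. HP (ENSSSCG00000002749, chromosome 6 from 14980382 to 14985245) had 33051, 32377, 29244, 29074 and 29328 CPM in rapeseed oil pigs 1 to 5. Its levels in beef tallow pigs 1 to 5 were 35095, 38981, 55842, 42952 and 35589 CPM, and coconut oil pigs ranged from 23413 to 32874 CPM with a median of 26850.3 CPM. All beef tallow pigs lay above all others, the highest being pig 3, while groups R and C overlapped. The log2 fold change was 0.45 for group B over group R (SE 0.18, edgeR adjusted p = 0.245) and -0.59 for group C over group B (SE 0.17, edgeR adjusted p = 0.248). Despite the lack of overlap, neither passed the test over all genes. Without beef tallow pig 3 the values were 0.31 and -0.45 (edgeR adjusted p = 0.292 and 0.302). With DESeq2 the second had an adjusted p of 0.0270, in a range of 0.0270 to 0.620 over the alternatives. For group C over group R the log2 fold change was -0.15 (SE 0.15, edgeR adjusted p = 0.735). Mean levels were 41692 ± 8514, 30615 ± 1933 and 27643 ± 3210 CPM in groups B, R and C (SD, n = 5, 5 and 6).

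HPX (ENSSSCG00000014626, chromosome 9 from 3288288 to 3297051) varied little. Over the 16 pigs it ranged from 4028 to 6761 CPM, a ratio of 1.68, and all 3 diets overlapped. The means in groups R, B and C were 5545 ± 685, 5132 ± 734 and 5198 ± 657 CPM (SD, n = 5, 5 and 6), and the order of these means does not exceed their spread. Its log2 fold changes, -0.11, -0.09 and 0.03 for B over R, C over R and C over B, had standard errors of 0.16, 0.14 and 0.16 (edgeR adjusted p = 0.800, 0.848 and 0.969), and the last was -0.0525 without beef tallow pig 5 and -0.0355 without coconut oil pig 1. The first lay between -0.18 without beef tallow pig 3 and -0.0368 without beef tallow pig 5, and the second between -0.15 without coconut oil pig 1 and -0.0150 without rapeseed oil pig 2.

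ORM1 (ENSSSCG00000005488, chromosome 1 from 254939154 to 254943065) encodes alpha-1-acid glycoprotein, a plasma lipocalin that carries small lipophilic molecules. Rapeseed oil pigs 1 to 5 had 214, 157.9, 101, 137 and 358 CPM. Beef tallow pigs 1 to 5 had 173, 147, 82.4, 61.1 and 119.7 CPM, and coconut oil pigs 137 to 363 CPM with a median of 215 CPM. The order of its means was the reverse of that of ITIH4, LBP and HP, with 231 ± 81.5, 194 ± 101 and 117 ± 45.8 CPM in groups C, R and B (SD, n = 6, 5 and 5), though all 3 diets overlapped. Its place among the positive genes was taken from the list and was not tested. The log2 fold change was 0.99 for group C over group B (SE 0.28, edgeR adjusted p = 0.228), with 5 of 6 coconut oil pigs above all beef tallow pigs. It was -0.74 for group B over group R (SE 0.33, edgeR adjusted p = 0.295), but -0.39 without rapeseed oil pig 5, the highest of its diet. For group C over group R it was 0.25 (SE 0.29, edgeR adjusted p = 0.786), with 0.59 without rapeseed oil pig 5, and 0.0955, 0.145 and 0.08 without rapeseed oil pigs 3 and 4 and coconut oil pig 5. None passed by edgeR, and DESeq2 gave the first an adjusted p of 0.0487, in a range of 0.0487 to 0.551 over the alternatives.

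ALB (ENSSSCG00000008948, chromosome 8 from 69643427 to 69663152) encodes albumin, the main protein of plasma and a carrier of fatty acids. Rapeseed oil pigs 1 to 5 had 94120.4, 82547, 80588, 121015 and 75035 CPM, and beef tallow pigs 1 to 5 had 114354, 74512, 26640.2, 92369.7 and 65313 CPM. Coconut oil pigs ranged from 61355 to 143110.3 CPM with a median of 91209 CPM. Beef tallow pig 3 was the lowest of all 16, and the other 4 beef tallow pigs lay within the range of group C. Log2 fold changes were -0.29 for group B over group R (SE 0.29, edgeR adjusted p = 0.691), 0.37 for group C over group B (SE 0.30, edgeR adjusted p = 0.663) and 0.07 for group C over group R (SE 0.21, edgeR adjusted p = 0.924). Without beef tallow pig 3 the first 2 moved to -0.07 and 0.15, and without beef tallow pig 1 to -0.49 and 0.58. The first was -0.16 without rapeseed oil pig 4 and the second 0.19 without coconut oil pig 3. The last lay between -0.10, without coconut oil pig 3, and 0.20, without rapeseed oil pig 4. Means of 94916 ± 26802, 90661 ± 18336 and 74638 ± 32721 CPM in groups C, R and B (SD, n = 6, 5 and 5) differed by less than their spread.

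TF (ENSSSCG00000011640) encodes transferrin, the iron carrier of plasma. Rapeseed oil pigs 1 to 5 had 21866, 25808, 23048, 21597 and 15438 CPM, and beef tallow pigs 1 to 5 had 20970.4, 19854, 22793, 20410.4 and 16883 CPM. Coconut oil pigs ranged from 13245 to 20721 CPM with a median of 15981 CPM. The diets overlapped, with rapeseed oil pig 5 inside the range of group C. Means were 21552 ± 3802, 20182 ± 2149 and 16507 ± 2874 CPM in groups R, B and C (SD, n = 5, 5 and 6). The largest difference was that of group C over group R, a log2 fold change of -0.38 (SE 0.17, unadjusted p = 0.0434, edgeR adjusted p = 0.368), and the others were -0.10 for B over R (SE 0.18, edgeR adjusted p = 0.847) and -0.28 for C over B (SE 0.17, edgeR adjusted p = 0.554). That of B over R lay between -0.19 without rapeseed oil pig 5 and -0.0315 without rapeseed oil pig 2. As with CRP, 2 neighbouring loci on chromosome 13 bear the name, from 74862502 to 74907059 and from 74930655 to 74970599, so the level is uncertain. Such reads with several alignments made up a median of 26.5%, 22.2% and 19.8% of reads in groups R, B and C. Over the 16 pigs this share and TF had r = 0.513 (permutation p = 0.0423) and rho = 0.603 (permutation p = 0.0155), or 0.847 and 0.311 after adjustment over 40 relations between the 10 genes and 4 measures of library quality. Without the 2 pigs farthest from the median share r was 0.496. The share of reads outside genes and TF had r = -0.604 (permutation p = 0.0130, adjusted p = 0.520) and rho = -0.682 (permutation p = 0.00451, adjusted p = 0.1804), with r = -0.594 without 2 pigs. The part of these shares in the level of TF was not tested. None of the 40 relations passed an adjusted p of 0.05.

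AHSG (ENSSSCG00000011799, chromosome 13 from 124426313 to 124438848) encodes fetuin-A, which keeps calcium phosphate in solution. Rapeseed oil pigs 1 to 5 had 13301, 15512, 14908, 12927 and 16716 CPM. Beef tallow pigs 1 to 5 had 14677, 14678, 8425, 9585 and 12789 CPM, and coconut oil pigs 14044 to 16947 CPM with a median of 15107 CPM. The diets overlapped, yet beef tallow pigs 3, 4 and 5 were the 3 lowest of all 16. Log2 fold changes were -0.29 for group B over group R (SE 0.19, edgeR adjusted p = 0.497), 0.35 for group C over group B (SE 0.18, edgeR adjusted p = 0.452) and 0.06 for group C over group R (SE 0.14, edgeR adjusted p = 0.914). Without beef tallow pig 3 the first was -0.19 (edgeR adjusted p = 0.601) and the second 0.25 (edgeR adjusted p = 0.609). The last lay between 0.0150 without rapeseed oil pig 4 and 0.11 without rapeseed oil pig 5. The means, 15259 ± 1216, 14673 ± 1571 and 12031 ± 2897 CPM, had the order C, R and B (SD, n = 6, 5 and 5), with no step past the threshold.

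**Figure D2:**
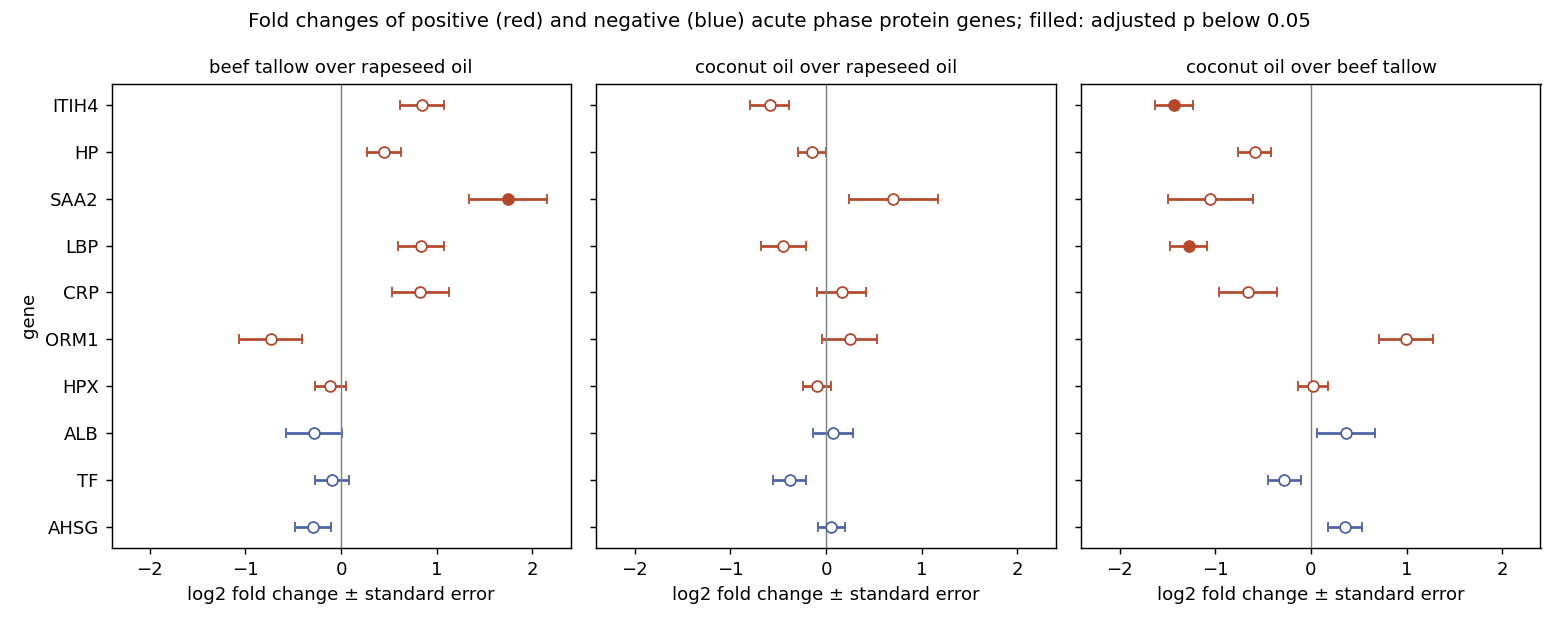
Log2 fold change of each gene with its standard error in the 3 pairs of diets, from edgeR's quasi-likelihood test, with filled points past an adjusted p of 0.05. SAA2 is filled for beef tallow over rapeseed oil at 1.75, ITIH4 and LBP for coconut oil over beef tallow at -1.43 and -1.28, and no gene is filled for coconut oil over rapeseed oil.

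The genes also differed in how far pigs of the same diet lay apart. The pooled SD of log2 CPM within diets was 0.98 for SAA2, 0.59 for both ORM1 and CRP, 0.53 for ALB, 0.41 for LBP and 0.39 for ITIH4, beside a median of 0.39 over the 6891 genes kept. For TF, AHSG, HP and HPX it was 0.23, 0.23, 0.19 and 0.19. Diet means accounted for 74.3% of the variance of log2 CPM for ITIH4, 68.5% for LBP and 67.1% for HP. For TF, SAA2, AHSG and ORM1 the share was 38.9%, 38.8%, 37.9% and 37.7%. It was 27.3% for CRP, 15.1% for ALB and 7.76% for HPX, beside a median of 16.04% over the genes kept.

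Whether the genes moved together was examined with the 45 pairs among them, over the log2 CPM of the 16 pigs. Pigs were permuted across diets, so these p values do not separate differences between diets from relations within them. By Pearson's r, 11 pairs passed an adjusted permutation p of 0.05, 7 of them between positive genes and 4 between a positive and a negative gene. By Spearman's rho, 3 pairs passed. The median r of the 45 pairs was -0.00573, beside 0.00189 over all pairs of the genes kept, 15.6% of the 45 pairs had r above 0.5, beside 4.71% of all pairs, and 17.8% had r below -0.5, beside 4.07%. Among the 21 pairs of the 7 genes named by the reference table, 2 passed by r, ITIH4 and LBP and LBP and AHSG, and 1 by rho, so 9 of the 11 pairs involve a gene named from the table of genes called different. Among the 21 pairs of positive genes the median was 0.235, and with levels taken as deviations from the diet means it was -0.0631. Single pairs had r from -0.711 to 0.746, so the 7 genes listed as positive did not all move together. The 3 values below -0.5 were all of ORM1, with LBP, HP and CRP (-0.711, -0.663 and -0.545). Without ORM1 the lowest r was -0.301, of SAA2 and HPX.

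ITIH4, HP and LBP were related to each other over the 16 pigs. For ITIH4 and HP, r was 0.746 (permutation p = 0.00046, adjusted p = 0.0127) and rho 0.768 (permutation p = 0.00074, adjusted p = 0.0247), with r = 0.634 without the 2 pigs farthest from the median of ITIH4. For HP and LBP, r was 0.734 (permutation p = 0.0006, adjusted p = 0.0127) and rho 0.753 (permutation p = 0.0011, adjusted p = 0.0247), with r = 0.604 without the 2 pigs farthest in HP. For ITIH4 and LBP, r was 0.686 (permutation p = 0.00418, adjusted p = 0.0209) and rho 0.703 (permutation p = 0.00332, adjusted p = 0.0498), with r = 0.516 without 2 pigs. As deviations from the diet means the 3 values of r were 0.163, 0.177 and -0.0819. These pool diets whose own relations differ, since the pairs with LBP went in opposite directions among rapeseed oil and beef tallow pigs, groups of 5 that are too small for a value of r. ITIH4 and SAA2 had r = 0.615 (permutation p = 0.0116, adjusted p = 0.0475) and rho = 0.632 (permutation p = 0.0103, adjusted p = 0.0768), with r = 0.492 without 2 pigs and 0.484 within diets.

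SAA2 and CRP had r = 0.691 (permutation p = 0.00293, adjusted p = 0.0188) and rho = 0.624 (permutation p = 0.0119, adjusted p = 0.0768), with r = 0.571 without the 2 pigs farthest in SAA2 and 0.551 within diets. The value within diets pools unlike groups. The relation was positive in each diet but lowest among the 6 coconut oil pigs, where r was 0.149, which was not tested. ORM1 passed by r with 2 of the 6 other positive genes, LBP and HP, both negative, and by rho with none. It had r = -0.711 with LBP (permutation p = 0.00206, adjusted p = 0.0185; rho = -0.653, permutation p = 0.0072, adjusted p = 0.0648), -0.516 without 2 pigs and -0.459 within diets, though the relation was negative in groups R and B and positive in group C (r = 0.285, n = 6, not tested). With HP it had r = -0.663 (permutation p = 0.00466, adjusted p = 0.0210; rho = -0.524, permutation p = 0.0386, adjusted p = 0.191), -0.402 without 2 pigs and -0.357 within diets, where it was negative in groups B and C and positive in group R. With the negative gene AHSG it had r = 0.738 (permutation p = 0.00085, adjusted p = 0.0127; rho = 0.659, permutation p = 0.00648, adjusted p = 0.0648), 0.648 without 2 pigs and 0.587 within diets. ORM1 and AHSG were positively related in each diet, with the lowest r among the 6 coconut oil pigs (0.246, not tested).

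The negative genes did not move as a group. Their 3 pairs had r between -0.349 and 0.446, and none passed. The highest, of ALB and AHSG, turned to -0.326 without beef tallow pig 3 and coconut oil pig 3, and its rho was -0.209. HP and ALB had r = -0.732 (permutation p = 0.00386, adjusted p = 0.0209; rho = -0.526, permutation p = 0.0375, adjusted p = 0.191), -0.527 without beef tallow pigs 3 and 4, the farthest in HP, and -0.792 within diets. This last value pools unlike groups, since the relation was close to 0 among rapeseed oil pigs, a group of 5 too small for a value of r, and -0.904 among the 6 coconut oil pigs, which was not tested. HP and AHSG had r = -0.746 (permutation p = 0.00257, adjusted p = 0.0188; rho = -0.424, permutation p = 0.103, adjusted p = 0.302), with -0.541 within diets but -0.139 without those pigs, so this relation rests on them. The value within diets pools opposite directions, negative among rapeseed oil and beef tallow pigs but 0.561 among the 6 coconut oil pigs. For LBP and AHSG, r was -0.663 (permutation p = 0.00186, adjusted p = 0.0185; rho = -0.500, permutation p = 0.0513, adjusted p = 0.192), -0.390 without the same 2 pigs and -0.360 within diets, which again pools negative relations in groups R and B with a positive one in group C (0.471). These values within group C were not tested. TF passed with none of the other 9 genes, its r ranging from -0.546 with ORM1 to 0.481 with HPX. HPX too passed with none. By median ALB holds the most reads of the 10, but in beef tallow pig 3 HP held 5.86% of the reads on genes and ALB 2.80%. With the 10 genes left out of the library sizes, r of HP and ALB was -0.752. The part of the share of reads of ALB in this relation was not tested.

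**Figure D3:**
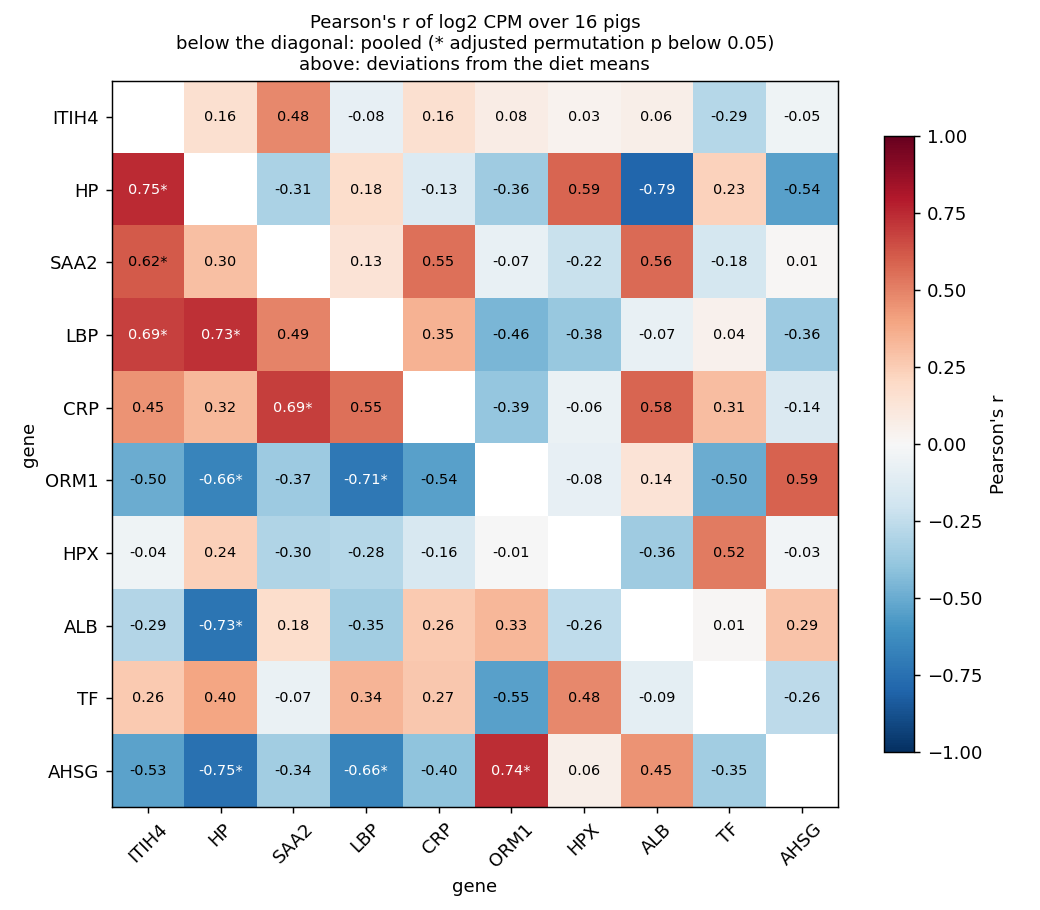
Pearson's r between the genes over 16 pigs, from log2 CPM, pooled below the diagonal and as deviations from the diet means above it, with stars for an adjusted permutation p below 0.05. ITIH4, HP and LBP have r of 0.686 to 0.746 below the diagonal and of -0.0819 to 0.177 above it, while HP and ALB have -0.732 and -0.792, the latter over diets whose own relations differ.

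The genes outside the 10 with the most similar levels over the 16 pigs were found by Pearson's r, the first 3 for each, among genes with a symbol. For HP they were FGA (r = 0.917), which encodes the alpha chain of fibrinogen, JAK1 (0.897), a kinase of cytokine receptors, and SLC5A6 (0.889). For ALB they were TMEM128 (0.954), RNF128 (0.929) and AUH (0.927). For ITIH4 they were ARHGAP35 (0.826), DDX39B (0.824) and ZNRF1 (0.824), and for LBP RNF126 (0.825), SUCO (0.814) and DNAJB11 (0.813). As deviations from the diet means, r was 0.747 for HP and FGA and 0.949 for ALB and TMEM128. Both values include beef tallow pig 3, the highest of all pigs in HP and the lowest in ALB. For ITIH4 r was 0.750 with ARHGAP35, 0.250 with DDX39B and 0.502 with ZNRF1. SAA2 was most like ACSL1 (0.846), UBALD2 (0.846) and UTP11 (0.827), and CRP most like UGP2 (0.802), ELL2 (0.782) and KLF15 (0.773). ORM1 lay nearest HIPK1 (0.846), RPL37 (0.843) and CCL16 (0.825), and HPX nearest SPSB3 (0.823), ECI2 (0.811) and CMSS1 (0.781). TF had ABCG8 (0.877), HAO2 (0.835) and CTSS (0.827), and AHSG had TRMT112 (0.889), MB21D2 (0.872) and PITHD1 (0.859). Each is among the highest values over all named genes kept, a description without a test.

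Other positive acute phase genes numbered 15 matched of 20 listed, and 11, 11 and 12 were tested in R against B, R against C and B against C. By edgeR 0 passed in each pair, with 1, 4 and 4 at an unadjusted p under 0.05, and their medians were 0.07, -0.30 and -0.44. DESeq2 called 0, 1 and 2 of them, FN1, for fibronectin, in R against C (-0.81, DESeq2 adjusted p = 0.0117) and FN1 (-1.16, DESeq2 adjusted p = 0.0298) and FGA in B against C; FN1 was named after its values were seen. The 2 most abundant were fibrinogen chains, FGA and FGB. FGA, at 28587 ± 8497 CPM in group B, 18409 ± 2241 CPM in group R and 14167 ± 2151 CPM in group C (SD, n = 5, 5 and 6), had log2 fold changes of 0.64 for B over R (SE 0.20, edgeR adjusted p = 0.141) and -1.01 for C over B (SE 0.20, edgeR adjusted p = 0.0668, DESeq2 adjusted p = 0.000212). FGA too was named from the table of genes called different. FGB had 0.25 and -0.21 (edgeR adjusted p = 0.590 and 0.729). All 8 other negative genes were tested, with medians of -0.16, -0.19 and 0.06. By edgeR 1, 0 and 0 passed, with 2, 2 and 1 at an unadjusted p under 0.05, and DESeq2 called 1, 1 and 0. The second of these was SERPINA6 (-0.71, DESeq2 adjusted p = 0.0209), the plasma carrier of cortisol, named after its values were seen. TTR, the thyroxine and retinol-binding protein carrier transthyretin, was the one past the threshold, lower in group B than in group R by a log2 fold change of -0.78 (SE 0.17, edgeR adjusted p = 0.0426), at 3741 ± 619 against 6425 ± 947 CPM (SD, n = 5 and 5). It passed in 2 of 10 fits with 1 pig left out, those without beef tallow pig 1 or 3, and its adjusted p reached 0.111 in the others. With all pigs it passed in 6 of 9 alternatives and lost its call with no filter on low counts, with sex as a covariate and with the replicate block, where the adjusted p was 0.0507, 0.0549 and 0.0801. RBP4 and APOA1, the most abundant of these genes, had log2 fold changes of -0.03 and 0.04 for B over R (edgeR adjusted p = 0.956 and 0.962).

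ITIH4 has relatives whose products form the inter-alpha inhibitors. Of 5 inter-alpha-inhibitor genes, 4 were tested in each pair and 0 passed by edgeR or DESeq2, with 0, 0 and 1 at an unadjusted p under 0.05, with medians of -0.29, -0.03 and 0.38 against the values of 0.85, -0.59 and -1.43 for ITIH4. AMBP, which encodes the light chain bikunin, had 1605 ± 463 CPM in group B and 2303 ± 222 CPM in group C (SD, n = 5 and 6), a log2 fold change of 0.53 (SE 0.18, edgeR adjusted p = 0.299). ITIH2, a heavy chain, had 0.42 (SE 0.20, edgeR adjusted p = 0.441). Of the others, named after their values were seen, ITIH1 had -0.37 and ITIH5 0.34 (edgeR adjusted p = 0.764 and 0.779) for the same pair, and ITIH3, below the filter, had means of 0.805, 1.61 and 0.455 CPM in groups R, B and C. Whether ITIH4 differs from its relatives was not tested.

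Of the genes that carry the acute phase signal, 0 passed in any pair by edgeR or DESeq2. Both matched ligands of 6 listed, IL6 and LIF, were below the filter, with mean levels of at most 1.81 and 0.384 CPM in a diet. Among 10 receptors 7 were tested, with 0 at an unadjusted p under 0.05 in each pair and medians of 0.14, -0.03 and -0.10, and the most abundant were IL6R (476.97 CPM over all pigs) and IL1R1 (317 CPM), at log2 fold changes of -0.40 and 0.52 for B over R (edgeR adjusted p = 0.351 and 0.337). Of 9 genes of signal transduction, 8, 7 and 8 were tested, with 1, 1 and 2 at an unadjusted p under 0.05 and medians of 0.21, -0.10 and -0.28. JAK1 had 0.43 for B over R and -0.53 for C over B (edgeR adjusted p = 0.245 and 0.299), and RELA, a subunit of NF-κB, 0.15 and -0.08 (edgeR adjusted p = 0.802 and 0.914). The brakes of the signal, 6 genes with 4, 4 and 5 tested and 0, 0 and 1 at an unadjusted p under 0.05, had medians of 0.24, -0.12 and -0.04, with NFKBIA at -0.10 and TNFAIP3 at 0.08 for B over R (edgeR adjusted p = 0.897 and 0.934). Away from 0 lay SOCS3, an inhibitor of JAK signalling, at 0.65 for B over R and -1.15 for C over B (edgeR adjusted p = 0.498 and 0.299), and STAT3, at 0.71 and -0.90 (edgeR adjusted p = 0.355 and 0.394), both named after their values were seen. Other genes of signal transduction, also named after their values were seen, had other patterns. IKBKB had 0.34 for B over R, 0.36 for C over B and 0.70 for C over R (the last with edgeR unadjusted p = 0.0289, adjusted p = 0.315). TYK2 had -0.40 for B over R and 0.19 for C over B (edgeR adjusted p = 0.659 and 0.869). Of 9 transcription factors 7 were tested, with 1, 0 and 0 at an unadjusted p under 0.05 and medians of 0.30, 0.12 and -0.20, and HNF4A and XBP1, the most abundant, had 0.51 and 0.14 for B over R (edgeR adjusted p = 0.323 and 0.781).

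Among receptors and partners of the 10 proteins, 5 of 7 symbols were matched and tested, and CD163, the macrophage receptor of haptoglobin bound to haemoglobin, was higher in group B than in group R. It had 188 ± 21.7 CPM in group B, 109 ± 18.6 CPM in group R and 133 ± 23.5 CPM in group C (SD, n = 5, 5 and 6), and the log2 fold change of B over R was 0.79 (SE 0.17, edgeR adjusted p = 0.0414). It passed without rapeseed oil pig 4 and without beef tallow pig 3, and in none of the other 8 fits with 1 pig left out, where the adjusted p reached 0.104. With all pigs it lost its call with the replicate block (adjusted p = 0.0887). The medians of these 5 genes were 0.05, -0.20 and -0.47, and 0 passed in the other pairs of diets by edgeR or DESeq2, with 1 in R against C and 3 in B against C at an unadjusted p under 0.05. FCGRT, the receptor that salvages albumin, and TFR2, a transferrin receptor, were the most abundant and had log2 fold changes of -0.29 and 0.05 for B over R (edgeR adjusted p = 0.680 and 0.954).

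CD163 also belongs to the macrophage markers, of which 9 of 10 were matched and 8 tested. Their summed levels were 1066, 1219.9, 1039.6, 821 and 633 CPM in rapeseed oil pigs 1 to 5 and 1231, 887, 1689, 912 and 1019.8 CPM in beef tallow pigs 1 to 5. Coconut oil pigs had 641 to 915 CPM with a median of 699 CPM, so 3 of the 5 beef tallow pigs lay above all coconut oil pigs. The most abundant, C1QA, had 533 ± 141, 590 ± 210 and 339 ± 66.8 CPM in groups R, B and C (SD, n = 5, 5 and 6). Beef tallow pig 3 had 952 CPM of C1QA, against 427 to 554 CPM in the other beef tallow pigs. The higher mean of group B than of group R rests on that pig. Of the 8 genes, CD163 passed upward between R and B. By edgeR 0 passed between R and C, where 2 had an unadjusted p under 0.05, and 0 between B and C, where 5 did, all downward, with a median of -0.53. DESeq2 called 0 and 1 there, the latter C1QA (-0.80, DESeq2 adjusted p = 0.0434), in a fit that includes beef tallow pig 3, the highest in C1QA. The part of macrophages in the levels of the 10 genes was not tested.

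Endothelial markers, 4 of 6 matched, summed to 261 ± 59.5, 357 ± 19.8 and 305 ± 36.1 CPM in groups R, B and C (SD, n = 5, 5 and 6), with CLEC4G the most abundant and LYVE1 past the threshold upward for B over R (0.88, SE 0.20, edgeR adjusted p = 0.0495). For C over R LYVE1 had 0.86 (SE 0.21, edgeR adjusted p = 0.104, DESeq2 adjusted p = 0.0296), and for C over B -0.02 (edgeR adjusted p = 0.991). Individual sums were 209, 319.9, 329, 241 and 206 CPM in rapeseed oil pigs 1 to 5, 359, 369, 366, 369 and 322 CPM in beef tallow pigs 1 to 5, and 272 to 365 CPM in group C, with a median of 292 CPM. Their part in the results was not tested. LYVE1 passed without beef tallow pig 2 or 3 and in no other fit with 1 pig left out, where the adjusted p reached 0.141. With all pigs it passed in 4 of 9 alternatives and lost its call with RLE, sex as a covariate, the replicate block, library sizes without the 10 genes and thinning, with an adjusted p of up to 0.1297. Neutrophil markers, 5 of 6 matched and all below the filter, summed to 9.25 ± 4.45, 12.97 ± 6.55 and 5.07 ± 2.98 CPM in groups R, B and C (SD, n = 5, 5 and 6), with MPO and ELANE at 0 reads in all 16 pigs. The most abundant, S100A8, had 3.16 to 7.62 CPM in beef tallow pigs, 0 to 3.08 CPM in coconut oil pigs and 1.25 to 7.68 CPM in rapeseed oil pigs. Groups B and C thus did not overlap, though only narrowly, at levels below the filter. Of the genes tested between these 2 diets, 1.37% were without overlap. With no filter on low counts edgeR gave C over B -1.32 for S100A8 (unadjusted p = 0.0159, adjusted p = 0.433). The part of neutrophils in the levels of the 10 genes was not tested. T and NK cell markers, 5 of 6 matched, summed to 30.6, 27.9 and 34.3 CPM on average in groups R, B and C, led by CD2 (SD 9.15, 8.52 and 8.40), and the 5 B and plasma cell markers to 37.2 ± 14.9, 25.6 ± 17.3 and 16.4 ± 5.38 CPM (SD), led by JCHAIN, which DESeq2 called lower in group C than in group R (-1.27, DESeq2 adjusted p = 0.0357; edgeR adjusted p = 0.118). Cholangiocyte markers, 4 of 5 matched, summed to 12.98 ± 11.9, 11.06 ± 4.07 and 7.44 ± 2.72 CPM (SD), and the mean of group R was 7.87 CPM without rapeseed oil pig 4, which had 33.4 CPM. SOX9 was the most abundant over all pigs. The 6 stellate cell markers, led by COL3A1, summed to 563 ± 245, 474 ± 189 and 486 ± 158 CPM (SD). Erythroid markers, 3 of 4 matched, summed to 2169 ± 1621, 2183 ± 536 and 2937 ± 1573 CPM (SD, n = 5, 5 and 6), nearly all HBB.

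Since the sexes were unequally spread over the diets, males and females were also compared. Of the 10 genes, 0 passed between the sexes, where 0.0786% of 6365 genes did (5 genes, and 256 at an unadjusted p under 0.05), and their edgeR adjusted p was 0.998. DESeq2 called 0 of the 10 and 6 genes in all. CRP had the largest log2 fold change of males over females, 0.39 (unadjusted p = 0.164). No gene passed for an interaction of diet and sex by edgeR in the 3 pairs (0.0% of the genes tested in each), with 250, 260 and 240 genes at an unadjusted p under 0.05 in R and B, R and C, and B and C. The smallest unadjusted p among the 10 genes was that of CRP in groups R and B (0.0380, edgeR adjusted p = 0.999), where barrows had mean levels of 1677 CPM (n = 2) in group R and 4648 CPM (n = 3) in group B, and gilts of 2529 CPM (n = 3) and 2775 CPM (n = 2).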

How the data were processed

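Per the labels and the study's methods, the authors trimmed 50-base single reads of a 3′ mRNA kit, mapped them with TopHat to the pig genome (Sscrofa11.1) and counted them with HTSeq; the deposited files give raw counts of reads for each gene. Symbols came from the reference table, but those of HP, SAA2, ORM1 and FGA from identifier and symbol pairs in the study's supplementary table of genes called different between diets; its values were not used, but being in it depends on them. Of 147 listed symbols 129 matched. The members and lists were chosen with earlier results of these data known. Positions are RefSeq's, matched by symbol.

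Counts were fitted with edgeR 4.0.16 in R 4.3.3 (TMM, quasi-likelihood F test, no covariates; low counts filtered by filterByExpr, min.count 10, min.total.count 15). The standard error is the log2 fold change over the square root of F. Log2 CPM used a prior count of 2. Permutation tests were two-sided with 100000 resamples, adjusted over 45 pairs or 40 relations. Genes named are the 10, each gene past the threshold and the 2 most abundant of each list of related genes, and the 3 most similar to each of the 10. This rule does not cover the cell type markers, whose named genes were chosen after their values were seen; others outside it are marked in the text. Alternatives were DESeq2 1.42.0, RLE, other filters, all pigs in 1 fit, sex as a covariate, a replicate block, library sizes without the 10 genes, thinning and leaving out each pig, extended to list genes past the threshold after the data were seen. Methods were tested on simulated data. In R against B, R against C and B against C, edgeR recovered 60%, 66% and 55% of simulated 2-fold changes. For 4-fold changes it recovered 89%, 87% and 89%. A difference that did not pass is therefore not shown to be absent.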

Additional observations from a re-analysis of the deposited data

Results flagged for a closer look

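In the 30 combinations of 10 genes and 3 diets, 3 pigs lay far from the rest of their diet on the log2 scale, judged by the gap to the nearest pig over the range of the diet. Chance alone gives about 1 such pig in 20 combinations. ITIH4 in beef tallow pig 4 was the highest of its diet at 3551 CPM, with 2257 CPM next, a gap of 0.786 of the range. CRP in rapeseed oil pig 5 was the lowest at 1131 CPM, with 2222 CPM next, a gap of 0.818 of the range. HPX in rapeseed oil pig 2 was the highest at 6761 CPM, with 5351 CPM next, a gap of 0.855 of the range.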

How the results depend on the processing

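ITIH4 and LBP between groups B and C kept their direction and their side of the threshold under 9 of 9 alternatives with all pigs (-1.44 to -1.40 and -1.31 to -1.25) and in 11 of 11 fits without 1 pig. SAA2 between R and B kept its direction throughout but passed in 4 of the 8 alternatives that tested it and in 2 of 10 fits without 1 pig. The cause was not tested.

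Between R and B, DESeq2 called 190 genes and 3 of the 10, the fit with no filter on low counts also 190 and 3, and the replicate block 35 genes. Of the 10, 0 were called with RLE, with at least 10 reads in every pig (where SAA2 was not tested), with all 16 pigs in 1 fit, with sex as a covariate and with library sizes without the 10 genes. Without 1 pig, 9 (rapeseed oil pig 5) to 149 genes (beef tallow pig 3) and 0 to 2 of the 10 were called. Between R and C, DESeq2 called 93 genes, no filter 82 and at least 10 reads in every pig 14, and fits without 1 pig 3 (rapeseed oil pig 3) to 27 (coconut oil pig 3). Between B and C, DESeq2 called 46 genes and 4 of the 10, no filter 22 genes and all pigs in 1 fit 8, and fits without 1 pig 4 to 9 (beef tallow pig 2) genes. The cause was not tested.

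The sign turned for CRP between R and C with the replicate block (-0.0400), without rapeseed oil pig 5 (-0.00310) and without coconut oil pig 6 (-0.0484), in a range up to 0.28 without 1 pig. It turned for ALB between R and C without coconut oil pig 3 (-0.10, up to 0.20), and for HPX between B and C without beef tallow pig 5 (-0.0525) and coconut oil pig 1 (-0.0355), with values up to 0.0914. The r of ITIH4 and LBP was -0.0819 as deviations from the diet means. Of the other log2 fold changes of the 10 genes and of TTR, LYVE1 and CD163, 586 kept direction and side of the threshold. The 45 that lost the threshold were of SAA2, TTR, LYVE1 and CD163 between R and B, and the 7 that gained it were of ITIH4 and LBP between R and B and of HP and ORM1 between B and C. SAA2 had 5 reads in its lowest pig.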
